A study of Mus musculus with 6 samples.

Results

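Arginine is the shared substrate of 2 enzyme families. Arginases split it into ornithine and urea, and nitric oxide synthases oxidise it to nitric oxide and citrulline. Ornithine decarboxylase starts polyamine synthesis from ornithine, and citrulline can be recycled to arginine. In mouse macrophages Arg1 and Nos2 are widely used as marks of opposed activation states, and in the nervous system Nos1 is a neuronal gene and Nos3 an endothelial one. The 10 genes described here are the arginases Arg1 and Arg2, the nitric oxide synthases Nos1, Nos2 and Nos3, the cationic amino acid transporter Slc7a2, the ornithine decarboxylase Odc1, the recycling enzymes Ass1 and Asl, and the polyamine acetyltransferase Sat1. They were chosen by name, and all 10 were found once each among the 37475 genes of the deposited table.

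The libraries came from polyadenylated RNA of spinal cord. Both groups were wild-type mice with a contusion at T10, sampled on day 3. The syringin group (SCI+Syr, 3 biological replicates) was injected intraperitoneally every day with 50 mg/kg of syringin, a plant phenylpropanoid glucoside, and the PBS group (SCI, 3 biological replicates) with phosphate-buffered saline. Strain, age and sex are not in the labels used here. No uninjured cord was analysed here, so every difference is between injured cord of mice given syringin and of mice given PBS.

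Totals per library lay between 65579117 and 78843034 counts. A count of 4 was 1.5 times as frequent as its neighbouring values, so the counting error cannot be read from the totals. Of 22114 genes tested with edgeR (quasi-likelihood test, p adjusted by Benjamini-Hochberg), 1108 passed (5.01%), 359 of them higher (1.62%) and 749 lower (3.39%) with syringin. An unadjusted p under 0.05 was reached by 5214 of these 22114 genes in edgeR, and DESeq2 called 1171 genes higher and 1652 lower. When length and GC content of the transcripts were corrected for, 516 genes were higher and 637 lower. Myelin transcripts were present in every library: Mbp stood at 9330 CPM (counts scaled to a common library size) or more, and Mog at 165 CPM or more. Transcripts of sensory ganglion neurons, which lie outside the cord, were high in syringin libraries 1 and 3 and PBS library 1. Their 10 markers summed to 296, 28.1 and 140.0 CPM in the syringin libraries and to 364, 54.9 and 59.0 CPM in the PBS libraries, and none of the 10 passed in edgeR or DESeq2 (0 at an unadjusted p under 0.05). The low sums were mostly 1 marker, Prph, at 18.4 CPM in syringin library 2 and 28.4 and 44.4 CPM in PBS libraries 2 and 3. Another marker, Scn10a, had 0, 15 and 0 counts there. Of other marker lists, 3 of 8 astrocyte markers fell, and among 9 neutrophil markers 1 rose and 1 fell. No marker of microglia, oligodendrocytes or fibroblasts (8 each) passed in edgeR. At an unadjusted p under 0.05 there were 3, 1 and 0, and DESeq2 called 2 microglial markers, both lower.

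Of the 10 genes, Arg1 and Arg2 rose and Nos1 fell in the syringin group, and 7 did not pass. Those are 2 higher genes where 1.62% of all genes were higher, and 1 lower where 3.39% were lower. The median log2 fold change of the 10 was 0.26, against 0.01 over all genes tested. The groups did not overlap in CPM for 5 genes that were higher with syringin (Arg1, Arg2, Nos2, Nos3 and Odc1) and for 1 that was lower (Nos1). Over all genes tested, the groups lay apart in 30%, 14.7% in the higher and 15.3% in the lower direction. All fold changes are syringin over PBS on the log2 scale with their standard errors, from 3 libraries a group.

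**Figure D1:**
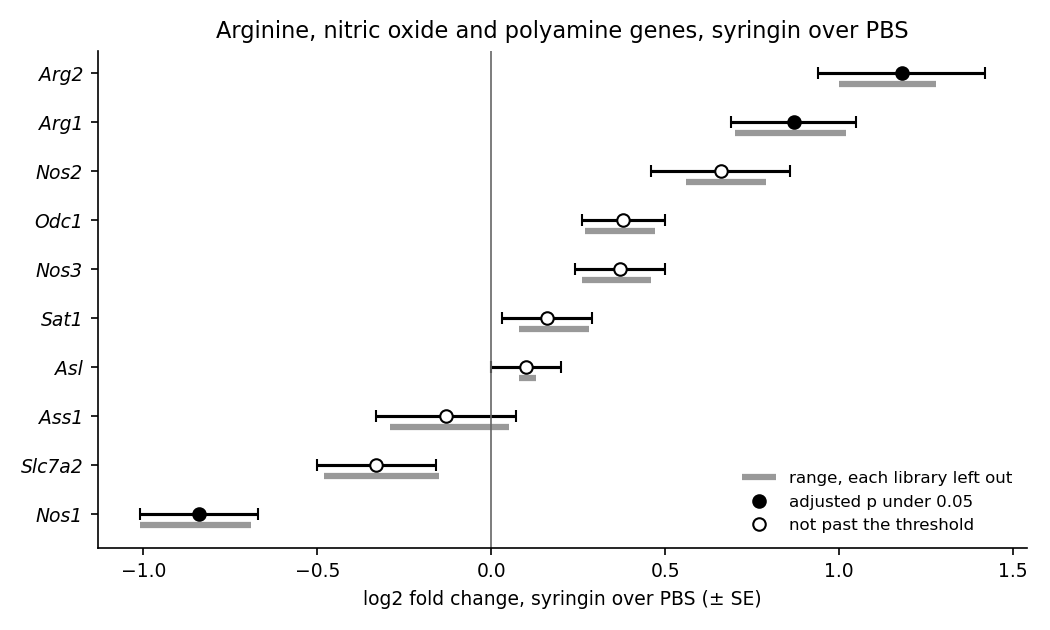
Log2 fold change of each of the 10 genes, syringin over PBS, from edgeR; points are estimates, bars ± 1 standard error, filled points have an adjusted p under 0.05, and grey bars span the estimates with each library left out in turn. Arg2 (1.18) and Arg1 (0.87) lie at the top and Nos1 (-0.84) at the bottom, and of the grey bars, that of Ass1 crosses 0.

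The calls of Arg1, Arg2 and Nos1 lay close to the threshold. None of the 3 passed in edgeR without PBS library 1, 2 or 3 or without syringin library 2 or 3, where the adjusted p was 0.0544 to 0.168 for Arg1, 0.0622 to 0.149 for Arg2 and 0.0642 to 0.188 for Nos1. Without PBS library 3, edgeR called no gene of the whole table (3449 had an unadjusted p under 0.05), while DESeq2 called 1315 genes, these 3 among them.

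Promoter sequences are shown for the nitric oxide genes that fell (Nos1 and, described further on, its adaptor Nos1ap and the receptor subunit Gucy1b1) and for Odc1. Of the 10 genes, Nos1, Odc1, Ass1 and Sat1 had an entry in the RefSeq promoter table (build GRCm38.p6, 250 bases before to 50 after the transcription start, 5′ to 3′ on the gene's strand). Both strands were searched for TGACG, the half-site of the cAMP response element that is part of the full element TGACGTCA. The other motifs were the CCAAT box (spelled CCAAT), the TATA box (spelled TATAAA), the GC box (spelled GGGCGG) and the E-box (spelled CACGTG). Capitals mark the matches on either strand. Of Nos1ap, the more upstream of 2 listed starts is shown. Nos1, Gucy1b1 and Odc1 had 1 listed start each. The deposited table gives 5 transcripts for Nos1 and 8 for Odc1, so windows of other starts may be missing.
Nos1, chr5:117866589-117866888, plus strand: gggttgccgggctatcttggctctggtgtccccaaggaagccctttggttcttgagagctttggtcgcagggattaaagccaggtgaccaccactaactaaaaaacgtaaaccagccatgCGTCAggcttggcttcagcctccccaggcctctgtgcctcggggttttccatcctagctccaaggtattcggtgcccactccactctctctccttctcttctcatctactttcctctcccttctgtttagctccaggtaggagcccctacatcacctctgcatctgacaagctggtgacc
Nos1ap, chr1:170589800-170590099, minus strand: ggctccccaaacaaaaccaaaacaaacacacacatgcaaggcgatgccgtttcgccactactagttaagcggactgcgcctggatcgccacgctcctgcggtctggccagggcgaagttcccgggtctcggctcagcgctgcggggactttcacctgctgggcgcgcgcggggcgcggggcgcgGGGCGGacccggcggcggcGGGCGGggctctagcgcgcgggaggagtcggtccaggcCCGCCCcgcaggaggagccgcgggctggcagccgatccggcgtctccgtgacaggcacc
Gucy1b1, chr3:82074662-82074961, minus strand: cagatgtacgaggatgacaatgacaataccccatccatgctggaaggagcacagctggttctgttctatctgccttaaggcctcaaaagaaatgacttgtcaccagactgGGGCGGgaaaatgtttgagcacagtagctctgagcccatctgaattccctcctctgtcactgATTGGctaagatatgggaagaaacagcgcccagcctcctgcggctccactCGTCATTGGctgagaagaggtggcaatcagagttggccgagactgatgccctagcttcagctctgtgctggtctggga
Odc1, chr12:17544623-17544922, plus strand: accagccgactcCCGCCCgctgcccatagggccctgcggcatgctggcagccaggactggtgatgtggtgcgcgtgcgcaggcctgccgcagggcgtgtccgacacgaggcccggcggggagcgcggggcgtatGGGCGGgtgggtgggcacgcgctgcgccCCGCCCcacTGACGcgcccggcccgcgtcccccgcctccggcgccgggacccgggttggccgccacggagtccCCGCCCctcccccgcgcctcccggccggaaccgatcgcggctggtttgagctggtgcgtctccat

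The 4 windows differed in composition. GC content was 54.7% for Nos1, 71.7% for Nos1ap, 52.3% for Gucy1b1 and 78.0% for Odc1, against a median of 52.7% over 32851 promoters. The half-site TGACG occurred once each in Nos1, Gucy1b1 and Odc1, as it did at least once in 20.8% of all promoters. The GC box occurred 3 times in Nos1ap, once in Gucy1b1 and 4 times in Odc1, against at least 1 match in 35.7% of all promoters, and CCAAT occurred 2 times in Gucy1b1 (37.4% of all promoters), where 1 of them overlaps the TGACG match. The full element, the TATA box and the E-box (1.79%, 13.6% and 7.15% of all promoters) had no match in the 4 windows.

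By the deposited table, Arg1 lies on chromosome 10, Arg2 and Odc1 on 12, Nos1, Nos3 and Asl on 5, Nos2 on 11, Slc7a2 on 8, Ass1 on 2 and Sat1 on X. Levels of different genes are compared as FPKM, the authors' value scaled to transcript length and sequencing depth. Over the 6 libraries the order of mean FPKM was Arg1 (124), Odc1 (68.9), Sat1 (55.0), Slc7a2 (14.6), Nos3 (11.0), Ass1 (4.22), Asl (3.87), Arg2 (1.82), Nos1 (1.69) and Nos2 (0.883). The ranges of Arg1 and Odc1, of Odc1 and Sat1, of Slc7a2 and Nos3, of Ass1 and Asl, of Arg2 and Nos1, and of Nos1 and Nos2 overlapped over the libraries. Those of Sat1 and Slc7a2, of Nos3 and Ass1, and of Asl and Arg2 did not.

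**Figure D2:**
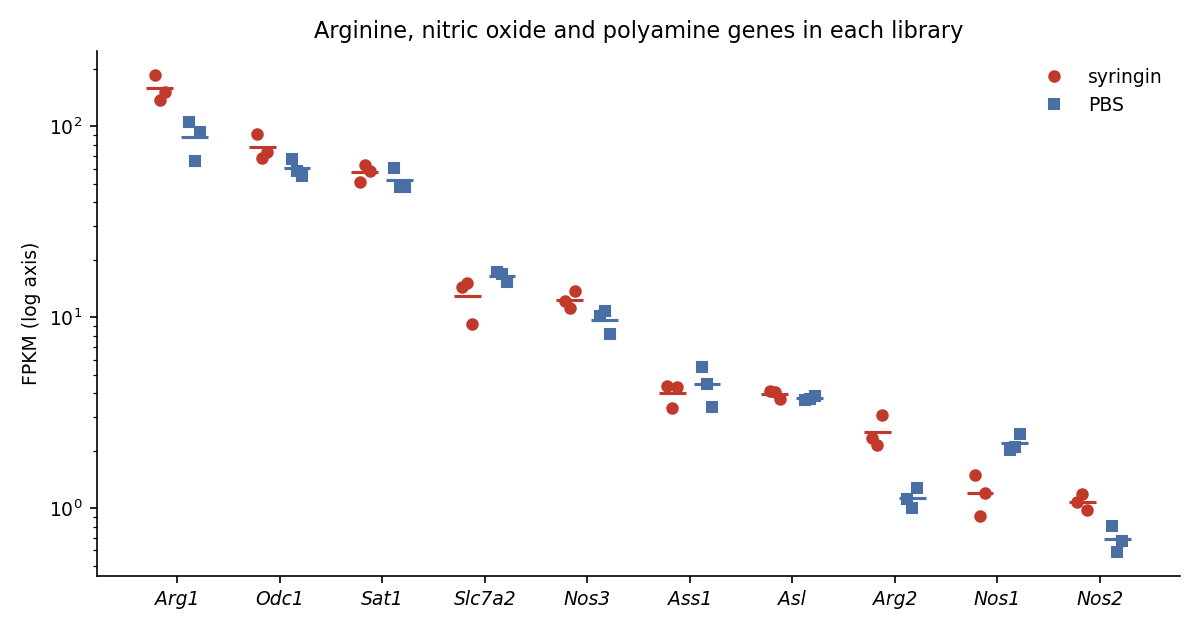
FPKM (log axis) of the 10 genes in each library, ordered by mean level; circles are the 3 syringin and squares the 3 PBS libraries, and lines are group means. The syringin values of Arg1 (137.91 to 186.62) and Arg2 (2.13 to 3.08) lie above all PBS values, and those of Nos1 (0.91 to 1.49) lie below them.

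Arg1, the cytosolic arginase that alternatively activated mouse macrophages express strongly, was the most abundant of the 10 transcripts in each group. Arg1 (ENSMUSG00000019987) had 186.62, 137.91 and 152.13 FPKM in syringin libraries 1, 2 and 3, against 105.6, 65.74 and 93.42 FPKM in PBS libraries 1, 2 and 3. Every syringin library stood above every PBS library, and PBS library 2 was the lowest of all. Arg1 rose by 0.87 ± 0.18 (1.83-fold), with adjusted p = 0.0395. After the length and GC correction the value was 0.78 (adjusted p = 0.0583), and on log2(FPKM + 0.1) limma gave 0.86 (adjusted p = 0.0572), so both missed the threshold.

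Arg2, the mitochondrial arginase, was far less abundant and rose too. Arg2 (ENSMUSG00000021125) had 2.33, 2.13 and 3.08 FPKM in the syringin libraries, against 1.11, 1 and 1.27 FPKM in the PBS libraries. The counts behind these values were 288, 217 and 331 with syringin and 129, 104 and 133 with PBS. The groups did not overlap, and syringin library 3 was the highest. Arg2 rose by 1.18 ± 0.24 (2.27-fold, adjusted p = 0.0365 in edgeR), and it passed as well after the length and GC correction (1.08, adjusted p = 0.0442). Arg2 overlaps Vti1b on the other strand. The sources used here do not say whether counting used strand, so shared reads cannot be told apart. Vti1b itself had a value of -0.02 ± 0.08. It was far more abundant, at 80.9 to 87.3 CPM with syringin and 80.7 to 91 CPM with PBS. Arg2 had 3.4 to 4.86 and 1.55 to 1.95 CPM. The part of shared reads in the Arg2 values was not tested.

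Arg2 made up 1.23%, 1.52% and 1.98% of the summed arginase FPKM in the syringin libraries, against 1.04%, 1.5% and 1.34% in the PBS libraries. The log2 ratio of Arg1 to Arg2 averaged 5.99 ± 0.35 with syringin and 6.27 ± 0.27 with PBS (SD, n = 3 each; exact permutation p = 0.4, two-sided). In an exact test of 3 against 3 the smallest possible p is 0.1, and with the other 3 ratios described here the adjusted p was 0.5. The 2 arginases were not shown to differ in their response by this test.

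Of 13 markers of monocytes and macrophages, 3 rose in edgeR (F10, Thbs1 and Clec4d) and none fell, all had positive fold changes, and the list median was 1.02. Summed, they reached 3570, 8010 and 5190 CPM in the syringin libraries and 2640, 3050 and 3700 CPM in the PBS libraries. Most of each sum came from Lyz2, Fn1 and Thbs1. Lyz2 had 816, 3670 and 1880 CPM with syringin and 643, 952 and 1010 CPM with PBS, so its groups overlapped. As the mean over the markers of log2 CPM relative to the 6 libraries, the 13 markers stood at 0.10, 0.63 and 0.44 in the syringin libraries. In the PBS libraries they stood at -0.58, -0.38 and -0.20. Every syringin library thus lay above every PBS library, as for Arg1, Arg2 and 14.7% of all genes tested. The order within the syringin group differed: Arg1 was highest in library 1 (0.65) and lowest in library 2 (0.28), and the list was lowest in library 1 and highest in library 2. Of 10 markers of alternative macrophages, 8 were tested and Il4ra, the interleukin-4 receptor subunit, rose by 0.83 ± 0.09 (adjusted p = 0.0114), while the mannose receptor Mrc1 had a value of 0.19 ± 0.30 and Retnla was at 0 counts in all but 1 library. Their sums, mostly Tgm2, Il4ra and Chil3, were 794, 723 and 592 CPM with syringin and 469, 441 and 421 CPM with PBS. Of 10 markers of inflammatory macrophages, 9 were tested and Fcgr1 and Irf5 rose, with sums of 155, 171 and 205 CPM with syringin and 118, 122 and 132 CPM with PBS. The part of these cells in the arginase values was not tested, and in bulk tissue a change in the number of cells of a type cannot be told apart from a change in RNA per cell.

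The profile of Arg1 over the 6 libraries was set beside those of the 11251 genes averaging at least 10 CPM, predicted and clone names left out. Adamts14, a procollagen-processing protease, was most like it (Pearson r = 0.9934 of log2 CPM over 6 libraries), followed by Sox13 (0.986), Pias4 (0.9835), Mrto4 (0.9799) and Ddx27 (0.9791). Adamts14 had a fold change of 0.71 ± 0.16 (adjusted p = 0.0504 in edgeR), just short of the threshold. The other 4 had fold changes of 0.15 to 0.34 and none passed. Among the 10 genes themselves, Nos2 (0.91), Arg2 (0.88) and Odc1 (0.88) had the highest r with Arg1. These r describe 6 libraries of 2 groups and carry no test.

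Nos1, the synthase of neurons, was the gene that fell. Nos1 (ENSMUSG00000029361) had 1.49, 0.91 and 1.2 FPKM in the syringin libraries, against 2.02, 2.1 and 2.43 FPKM in the PBS libraries. All syringin libraries lay below all PBS libraries, with syringin library 2 the lowest. Nos1 fell by 0.84 ± 0.17 on the log2 scale (0.557-fold, adjusted p = 0.0395 in edgeR). It missed the threshold after the length and GC correction (-0.66, adjusted p = 0.0556) and on log2(FPKM + 0.1) in limma (-0.83, adjusted p = 0.0663).

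Of 10 neuronal markers 6 fell in edgeR, none rose, and the median was -0.86. Relative to the mean of the 6 libraries, Nos1 stood at -0.13, -0.78 and -0.39 in the syringin and at 0.33, 0.39 and 0.59 in the PBS libraries, and the mean of the neuronal markers at -0.11, -0.78 and -0.37 in the syringin and at 0.56, 0.27 and 0.44 in the PBS libraries (log2 CPM). The neuronal sums were 2540, 1700 and 2280 CPM with syringin and 4180, 3280 and 3900 CPM with PBS. On the same scale the sensory ganglion markers stood at 2.65, -2.95 and 1.43 in the syringin and at 2.83, -1.78 and -2.18 in the PBS libraries. Their order within the syringin group was that of Nos1 and of the neuronal markers. Within the PBS group their order differed from both. There the ganglion markers were highest in library 1 and lowest in library 3, the reverse of Nos1. With the ganglion markers as a covariate, the fold change of Nos1 was -0.89 in edgeR. The part of the neuronal markers in the Nos1 value was not tested, nor was that of ganglion neurons in the neuronal markers.

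**Figure D3:**
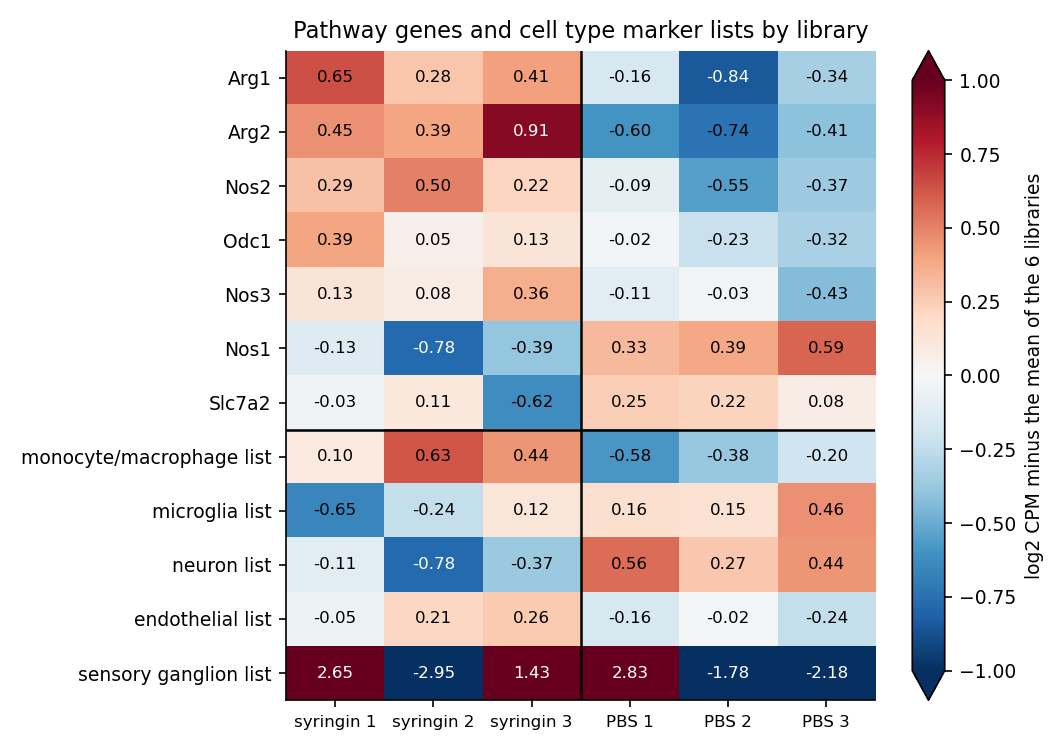
Log2 CPM minus the mean of the 6 libraries for 7 of the 10 genes (upper rows) and the mean of 5 marker lists (lower rows); columns are libraries, syringin left of PBS, and colours stop at -1 and 1. The rows of Nos1 and the neuron list are both below 0 in every syringin library (lowest, -0.78, in syringin library 2) and above 0 in every PBS library, where their order differs (highest in PBS library 3 for Nos1, 0.59, and in PBS library 1 for the neuron list, 0.56), and the sensory ganglion list is high in syringin libraries 1 and 3 and PBS library 1.

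Nos2, the inducible synthase of activated macrophages, was the least abundant of the 10. Nos2 had 1.07, 1.18 and 0.98 FPKM in the syringin libraries, against 0.81, 0.59 and 0.67 FPKM in the PBS libraries. The groups did not overlap, but its fold change of 0.66 ± 0.20 missed the threshold in edgeR (adjusted p = 0.0993; 95% interval 0.20 to 1.13). DESeq2 gave the same value and called it (adjusted p = 0.0316). The ratio of Arg1 to Nos2 was 174.0, 117.0 and 155.0 in the syringin and 130.0, 111.0 and 139.0 in the PBS libraries, a log2 difference of 0.21 between the groups (exact permutation p = 0.4, two-sided). The groups overlapped in this ratio, so a shift of the balance between Arg1 and Nos2 was not detectable in these 6 libraries.

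Nos3, the synthase of endothelium, was the most abundant synthase in every library. Nos3 had 12.14, 11.17 and 13.7 FPKM with syringin and 10.17, 10.72 and 8.14 FPKM with PBS. The groups did not overlap, and the fold change of 0.37 ± 0.13 missed the threshold (adjusted p = 0.136 in edgeR; 95% interval 0.07 to 0.68). Of 10 endothelial markers Pecam1 rose (0.58 ± 0.10) and the median was 0.26, with sums of 931, 1120 and 1090 CPM with syringin and 863, 927 and 801 CPM with PBS. Nos3 overlaps Atg9b on the other strand. Atg9b had 1.02 to 2.8 CPM with syringin and 3.44 to 4.89 CPM with PBS, against 51.5 to 62.6 and 36.2 to 47.9 CPM for Nos3.

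Of the summed synthase FPKM, Nos1 held 10.1%, 6.9% and 7.6% in the syringin libraries and 15.5%, 15.7% and 21.6% in the PBS libraries. Nos2 held 7.3%, 8.9% and 6.2% with syringin and 6.2%, 4.4% and 6.0% with PBS. Nos3 held the rest, 82.6% to 86.3% with syringin and 72.4% to 79.9% with PBS. The sum itself was 14.7, 13.3 and 15.9 FPKM with syringin and 13, 13.4 and 11.2 FPKM with PBS, so syringin library 2 lay just under PBS library 2.

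**Figure D4:**
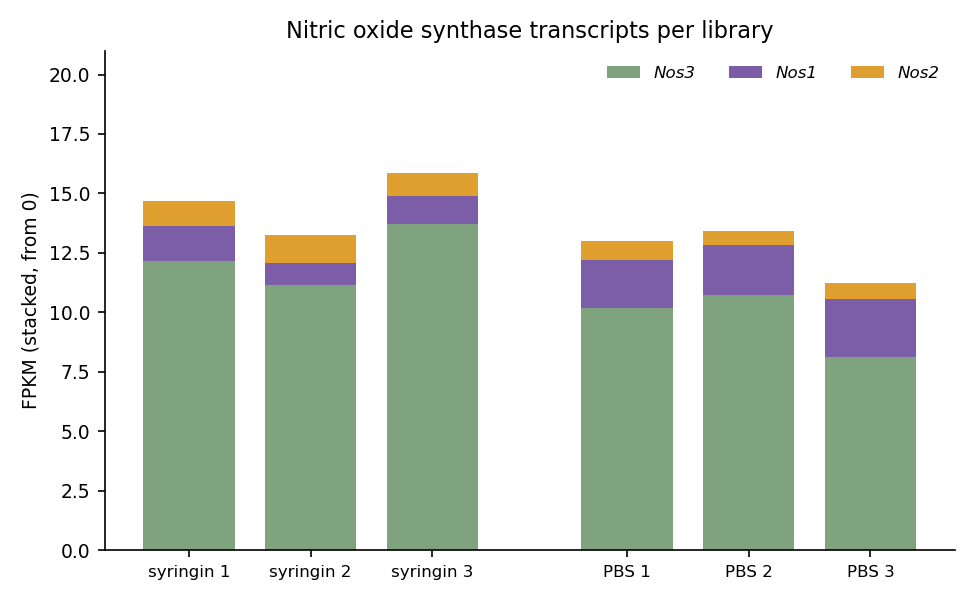
Stacked FPKM of the 3 nitric oxide synthases in each library, from 0; bars are single libraries, syringin left of PBS. Nos3 makes up most of every bar, and the Nos1 band is narrower in the syringin libraries (0.91 to 1.49 FPKM) than in the PBS libraries (2.02 to 2.43 FPKM).

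Slc7a2, the cationic amino acid transporter that carries arginine into cells, did not pass. Slc7a2 had 139, 153 and 92.5 CPM in the syringin libraries and 169, 166 and 150 CPM in the PBS libraries. Syringin library 3 stood well below the other 5, and syringin library 2 lay within the PBS range. The fold change was -0.33 ± 0.17 (adjusted p = 0.301 in edgeR; 95% interval -0.74 to 0.07), and without syringin library 3 it was -0.15 ± 0.10 (adjusted p = 0.448 in edgeR). In FPKM the groups did not overlap, with syringin libraries at 9.16 to 15.04 and PBS libraries at 15.28 to 17.2, so the order of the nearest libraries depended on the scale.

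Ass1 and Asl, which turn citrulline back into arginine, showed no difference beyond the spread. Ass1 had 4.38, 3.33 and 4.3 FPKM with syringin and 5.5, 4.46 and 3.38 FPKM with PBS, with a fold change of -0.13 ± 0.20 (95% interval -0.60 to 0.34). Without PBS library 1, its highest library, the value changed sign to 0.05. Asl was the steadiest of the 10, at 4.13, 4.05 and 3.75 FPKM with syringin and 3.7, 3.73 and 3.88 FPKM with PBS, with a fold change of 0.10 ± 0.10 (95% interval -0.13 to 0.33). The adjusted p in edgeR was 0.756 for Ass1 and 0.599 for Asl.

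Odc1, the rate-limiting enzyme of polyamine synthesis, had 91.04, 68.52 and 72.98 FPKM in the syringin libraries, against 67.55, 58.41 and 54.75 FPKM in the PBS libraries. The groups did not overlap, but syringin library 2 was within 1 FPKM of PBS library 1. Its fold change of 0.38 ± 0.12 missed the threshold in edgeR (adjusted p = 0.113; 95% interval 0.10 to 0.67), and it passed with the sensory ganglion markers as a covariate (0.35, adjusted p = 0.0443). Sat1, which acetylates spermidine and spermine for export or breakdown, had 51.26, 62.92 and 58.34 FPKM with syringin and 60.77, 48.29 and 48.2 FPKM with PBS. The groups overlapped (0.16 ± 0.13, adjusted p = 0.513 in edgeR; 95% interval -0.14 to 0.46).

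The ratio of Arg1 to Odc1 separated the groups. It was 2.05, 2.01 and 2.08 in the syringin libraries and 1.56, 1.13 and 1.71 in the PBS libraries, a log2 difference of 0.51 (exact permutation p = 0.1, two-sided, the smallest that 3 against 3 allows; adjusted p = 0.4 over 4 ratios). The syringin libraries lay close together and PBS library 2 was the lowest. The ratio of Odc1 to Sat1 was 1.78, 1.09 and 1.25 with syringin and 1.11, 1.21 and 1.14 with PBS, and the groups overlapped (log2 difference 0.22, exact permutation p = 0.5, two-sided).

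Around these 10 genes, 56 other genes of arginine transport, ornithine and creatine metabolism, polyamines and nitric oxide signalling were followed, of which 54 were tested. None rose and 3 fell in edgeR (Sms, Nos1ap and Gucy1b1), where 5.01% of all genes tested were called. At an unadjusted p under 0.05, 13 were higher and 7 lower, and DESeq2 called 8 higher and 6 lower. Over all 22114 genes tested in edgeR, 5214 had an unadjusted p under 0.05. DESeq2 called 1171 genes higher and 1652 lower in the whole table. The median log2 fold change was 0.08, against 0.01 over all genes tested. The urea cycle genes Otc and Cps1 were too low to test.

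**Figure D5:**
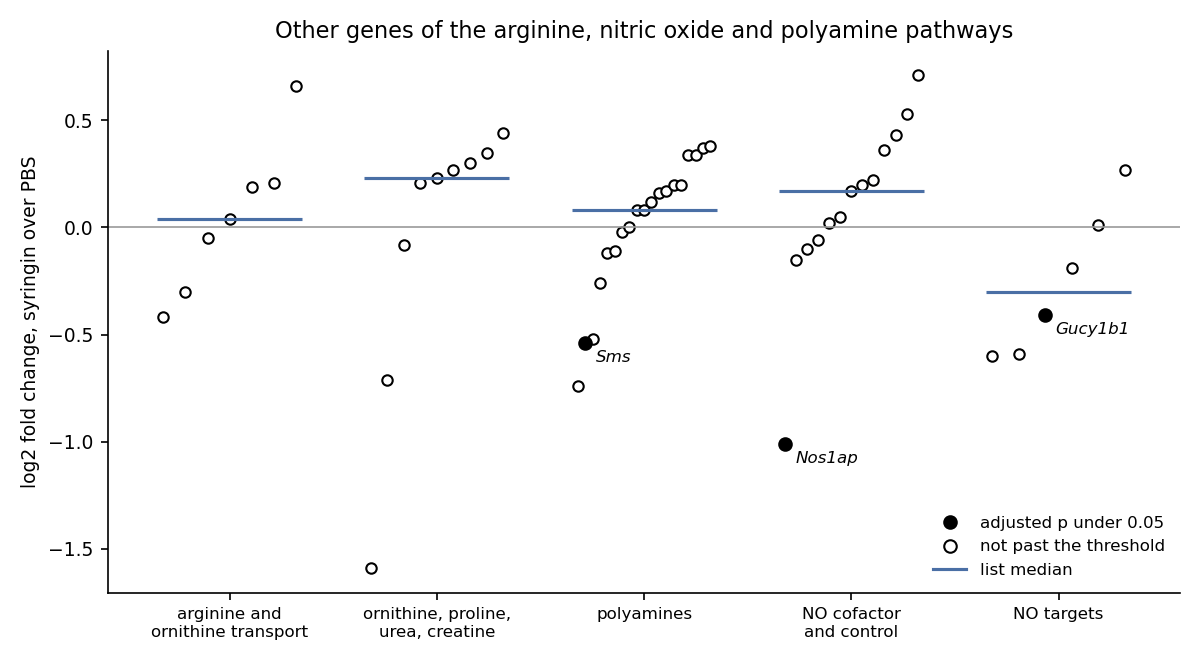
Log2 fold change, syringin over PBS, of the 54 tested genes of the 5 pathway lists; each point is a gene, ordered by value within its list, filled points have an adjusted p under 0.05 in edgeR and lines are list medians. The filled points are Sms (-0.54), Nos1ap (-1.01) and Gucy1b1 (-0.41), all lower with syringin.

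In nitric oxide signalling, edgeR called Nos1ap and Gucy1b1, both lower with syringin, in libraries where the neuronal markers given above were lower too. The part of those markers in these values was not tested. Nos1ap, the adaptor that binds the neuronal synthase, had 4.71, 3.07 and 3.17 CPM in the syringin libraries, against 7.55, 7.03 and 7.49 CPM in the PBS libraries. The PBS libraries lay close together, above every syringin library, and Nos1ap fell by 1.01 ± 0.21 on the log2 scale (adjusted p = 0.0408 in edgeR). Gucy1b1, the beta subunit of soluble guanylate cyclase, the receptor of nitric oxide, had 24.9, 25.0 and 26.2 CPM with syringin and 32.6, 33.3 and 35 CPM with PBS. Gucy1b1 fell by 0.41 ± 0.09 on the log2 scale (adjusted p = 0.0424 in edgeR), and its partner subunit Gucy1a1 had a value of -0.59 ± 0.16 (adjusted p = 0.0751). Of 6 target genes 1 fell and none rose in edgeR, with a list median of -0.30, and DESeq2 called 2, both lower. Of 13 genes of cofactor supply and control 1 fell and none rose in edgeR, with a median of 0.17, while 3 were higher at an unadjusted p under 0.05 and DESeq2 called 3 higher and 1 lower. Gch1, the entry enzyme of tetrahydrobiopterin synthesis, a cofactor of all synthases, had 16.1, 14.4 and 19.0 CPM with syringin and 12.5, 9.23 and 8.54 CPM with PBS (0.71 ± 0.18, adjusted p = 0.0691 in edgeR).

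Of 19 polyamine genes 1 fell and none rose in edgeR, with a median of 0.08, while 4 were higher at an unadjusted p under 0.05 and DESeq2 called 3 higher and 2 lower. Sms, spermine synthase, had 54.2, 40.7 and 47.6 CPM with syringin and 73.6, 64.1 and 69.3 CPM with PBS, without overlap, and fell by 0.54 ± 0.12 on the log2 scale (adjusted p = 0.0457 in edgeR). A pseudogene of Sms, Sms-ps, is listed separately (8.58 to 9.61 CPM with syringin and 9.19 to 12.0 CPM with PBS), so reads may be split between them. Other steps of synthesis had positive values that missed the threshold: spermidine synthase Srm at 0.38 ± 0.09 (adjusted p = 0.0623 in edgeR) and S-adenosylmethionine decarboxylase Amd1 at 0.34 ± 0.08 (adjusted p = 0.0514 in edgeR). Amd1 has the close copy Amd2 and listed pseudogenes, so its counts are uncertain.

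In the arginine and ornithine transport list none of 7 genes passed in edgeR (2 higher and 0 lower at an unadjusted p under 0.05, and 1 called, higher, by DESeq2; median 0.04). The 2 with the smallest p were Slc7a7 (0.66 ± 0.20, adjusted p = 0.104) and its heavy chain Slc3a2 (0.21 ± 0.08, adjusted p = 0.159). None of the 9 tested genes of ornithine, proline and creatine metabolism passed in edgeR (4 higher and 2 lower at an unadjusted p under 0.05, and 1 higher and 1 lower called by DESeq2; median 0.23). Prodh, proline dehydrogenase, had a value of -0.71 ± 0.19 (adjusted p = 0.0754), and Gatm, which makes the creatine precursor from arginine, 0.44 ± 0.14 (adjusted p = 0.117).

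Without PBS library 1, 2 or 3 or syringin library 2 or 3, no gene of the 5 pathway lists passed in edgeR, with 13 to 19 of them at an unadjusted p under 0.05. Without syringin library 1, edgeR called 4, 1 of them higher.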

How the data were processed

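Per the labels' protocols, stranded libraries were made from polyadenylated cord RNA. The submitters' processing notes name HISAT2, StringTie, GRCm38 and mm10. The authors deposited an estimated count (whole numbers, so rounding changed nothing) for each gene in each library, and likewise FPKM. Gene coordinates of the table are not printed, since their starts match GENCODE M21 (GRCm38) for 717 of 34804 genes found in both. Taken as read counts, replicates of a group differed by more than sampling noise. Chi-square over degrees of freedom was 106.2 to 147.4 between syringin libraries and 31.3 to 67.6 between PBS libraries. It was 98.8 to 248.0 between libraries of different groups. Since the counting error of the deposited values is not known, these figures are approximate.

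Counts were scaled by TMM, whose factors were 0.965 to 1.029. Genes were kept by filterByExpr at a count of 10 and a total of 15, and fitted with edgeR 4.0.16 (R 4.3.3, quasi-likelihood, robust), treatment being the only term. A call is an adjusted p under 0.05, two-sided. Log2 CPM used a prior count of 2. The values of single genes relative to the mean of the 6 libraries used no prior count. Ratios of FPKM were compared by exact permutation tests with scipy 1.17.1. Alternatives used limma 3.58.1 and DESeq2 1.42.0. The fits were also run on simulated independent counts. Those lacked the excess at a count of 4, so that check does not bear on it. The labels state no pairing, and the check of replicate numbers given below does not decide it, so the numbers were not used as pairs.

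The genes, lists and tests were chosen with earlier results of these data known. Named were all 10 genes, every called gene of a pathway list or else the 2 with the smallest p, and the 5 genes most like Arg1. Gucy1a1, Gch1, Srm and Amd1 were named after their values were seen.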

Additional observations from a re-analysis of the deposited data

How the results depend on the processing

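Across 14 other settings on all 6 libraries no fold change of the 10 genes changed sign. Arg1 and Nos1 kept their call in 10 of the 14 and Arg2 in 13. The number of genes called in the whole table, of the 10 genes called and of pathway genes called was 1108, 3 and 3. DESeq2 called 2823 genes of the table and 14 of the pathway lists, and the covariate of sensory ganglion markers gave 2584 and 12. After the length and GC correction 1 of the 10 genes (Arg2) was called. Limma on log2(FPKM + 0.1) called 707, 1 and 1, on log2(FPKM + 1) 715, 1 and 1, and without a filter on low values 110, 0 and 0 (at an unadjusted p under 0.05, 5282, 6 and 18). The cause of these differences was not tested. With each library left out in turn, in edgeR and, chosen after the data were seen, in DESeq2 and limma-voom, the counts ran from 0 to 3710 in the table, 0 to 5 among the 10 genes and 0 to 13 among pathway genes. The genes called in edgeR numbered 263, 184 and 0 without PBS library 1, 2 and 3 and 1944, 436 and 251 without syringin library 1, 2 and 3. Without PBS library 3, limma-voom called 0 genes (3532 with an unadjusted p under 0.05). In the same order DESeq2 called 2036, 2049 and 1315 without a PBS library and 3710, 2131 and 2325 without a syringin library, and limma-voom 308, 264 and 0, then 1923, 402 and 241. Of pathway genes DESeq2 called 7, 9 and 4, then 13, 12 and 7. DESeq2 called Arg1, Arg2 and Nos1 in all 6 such fits. Ass1 changed sign without PBS library 1 in edgeR, DESeq2 and limma-voom (0.05, 0.05 and 0.06). The log2 differences of ratios ran from -0.45 to -0.10 for Arg1 over Arg2, 0.09 to 0.38 for Arg1 over Nos2, 0.33 to 0.63 for Arg1 over Odc1 and 0.02 to 0.37 for Odc1 over Sat1.

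With the replicate number as a block, 2557 genes and 11 pathway genes passed, and Odc1 (adjusted p = 0.0292) joined the other 3. Deviations of same-numbered libraries correlated at 0.29, 0.12 and 0.05. Syringin libraries 1 and 3 correlated best with the PBS library of the same number, and syringin library 2 with PBS library 3 (0.14). So few correlations cannot decide whether the libraries were paired. The labels state no pairing, so the numbers are not taken as pairs. With 3 libraries in a group, differences the size of that of Odc1 could lie on either side of the threshold. The p-values of edgeR set a group difference against the spread between these libraries, which is estimated with the help of all genes.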
